A study of Mus musculus with 9 samples.

Results

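A set of 10 genes that encode proteoglycans and glycoproteins of the extracellular matrix were examined for enhancer and promoter histone marks in oviductal muscle cells of early pregnancy. The members were Dcn, Lum, Bgn, Fbn1, Eln, Fn1, Postn, Sparc, Tnc and Thbs1, 10 of 21853 protein-coding genes of the GENCODE annotation on GRCm38. For each gene, all peaks overlapping its body or the 25 kb on either side (its locus) were collected. They were divided into promoter peaks, which overlapped a window of 1 kb either side of the start of a protein-coding transcript, intragenic peaks and flanking peaks. The genes were chosen by name, with earlier results of these data known, and no measured value entered the rule. The replicate lists held 114 to 149 peaks at these loci, of 93684 to 152889 peaks in each list.

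All libraries were made from primary oviductal muscle cells, taken from WT mice aged 8 to 12 weeks on Day 2 of pregnancy. Oviducts were digested with enzymes, passed through a filter and plated for some hours. In ChIC-Seq, MNase is brought to a histone mark by its antibody, cuts the DNA around it, and the freed pieces are read. There were 3 samples with antibody to H3K27ac, 3 to H3K4me1 and 3 with IgG, which served as controls of the peak calls and had no list of their own. No knockout, treatment or other day was compared, and the labels did not say whether replicates were separate animals or pools. A peak list from mixed cells cannot tell a mark carried by fewer cells from a weaker mark in each cell.

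The extracellular matrix of a muscular tube such as the oviduct is made of collagen fibrils, elastic fibres and soluble glycoproteins that join them to cells. Small leucine-rich proteoglycans bind collagen fibrils and set their spacing, fibrillin microfibrils carry elastin, and fibronectin, periostin, SPARC, tenascin C and thrombospondin connect matrix to cell receptors and growth factors. Fibroblasts are the best known source of these proteins, and smooth muscle cells also make many of them. H3K4me1 is commonly found at enhancers and beside active promoters, while H3K27ac is found at active enhancers and at active promoters themselves.

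The H3K27ac calls used 40551842 to 42040809 fragments of antibody libraries. The H3K4me1 calls used 41891318, 78891920 and 64063996 in replicates 1, 2 and 3, so the deeper libraries were all of H3K4me1. Both were called against 3110985 to 3713369 IgG fragments. The effect of depth on the comparison of the marks was not tested. Only 11.1% to 19.0% of the peaks of a replicate list reached 1.3 in −log10 p, so most peaks were weak calls. Among 8 markers of each cell type, a promoter peak in at least 2 of 3 replicate lists was found for H3K27ac and H3K4me1 at 4 and 5 smooth muscle genes, 8 and 8 fibroblast genes, 0 and 2 epithelial genes, 3 and 4 endothelial genes and 2 and 0 blood cell genes. The same rule called 53.9% and 43.7% of all protein-coding genes. Acta2, Des and Smtn had promoter peaks of both marks in all 6 lists, but Myh11, the smooth muscle myosin heavy chain, had none of H3K27ac and 1 of H3K4me1. The median locus of the fibroblast markers was covered over 13.4% of its length by H3K27ac peaks and 15.1% by H3K4me1 peaks, against 6.54% and 5.22% for the smooth muscle markers. The medians were 4.34% and 6.15% for epithelial, 2.59% and 3.53% for endothelial and 2.02% and 0.833% for blood cell markers. The fibroblast markers include Col1a1, Col1a2 and Col3a1, matrix genes that are also in the list of collagens below, and each was covered above the fibroblast median. The part of fibroblasts in the values below was not tested.

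Promoter sequences of the members that the peaks distinguish are given first. The RefSeq promoter table for GRCm38.p6 held 5 of the 10 genes, and each entry runs from 250 bases before to 50 bases after a RefSeq start. Postn, Sparc and Fbn1 are shown because their joint promoter windows had peaks of both marks in all 6 replicate lists, though neither of the 2 Sparc windows did by itself, and Bgn because it had H3K4me1 in 1 list. Each is written 5′ to 3′ on the strand of the gene. Capitals mark matches, on either strand, to TATAAA, which TBP binds (a TATA box), CCAAT, which NF-Y binds, GGGCGG, which Sp1 binds (a GC box), TGANTCA, which AP-1 binds, CATTCC, which TEAD factors bind, CAGACA, which SMAD proteins bind, TGTTCT, which progesterone and glucocorticoid receptors bind, and the CArG box, where serum response factor binds.
Postn, chr3:54360857-54361156, plus strand: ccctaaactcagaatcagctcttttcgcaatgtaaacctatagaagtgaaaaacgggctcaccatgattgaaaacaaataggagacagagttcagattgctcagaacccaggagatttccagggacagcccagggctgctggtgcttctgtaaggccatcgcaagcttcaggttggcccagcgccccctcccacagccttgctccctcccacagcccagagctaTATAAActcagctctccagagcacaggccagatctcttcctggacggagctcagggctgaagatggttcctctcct
Sparc, chr11:55420031-55420330, minus strand: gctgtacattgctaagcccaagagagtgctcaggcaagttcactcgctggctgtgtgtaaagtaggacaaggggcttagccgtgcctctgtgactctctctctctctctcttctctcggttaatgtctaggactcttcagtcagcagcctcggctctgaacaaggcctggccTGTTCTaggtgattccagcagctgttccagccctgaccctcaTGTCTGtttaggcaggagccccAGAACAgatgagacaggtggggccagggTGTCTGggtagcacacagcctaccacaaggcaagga
Fbn1, chr2:125506389-125506688, minus strand: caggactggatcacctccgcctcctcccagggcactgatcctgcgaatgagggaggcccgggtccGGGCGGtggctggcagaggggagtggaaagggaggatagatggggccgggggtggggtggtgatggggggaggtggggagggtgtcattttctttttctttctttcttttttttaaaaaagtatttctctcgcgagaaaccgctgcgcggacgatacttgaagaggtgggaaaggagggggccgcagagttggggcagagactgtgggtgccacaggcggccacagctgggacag
Bgn, chrX:73483351-73483650, plus strand: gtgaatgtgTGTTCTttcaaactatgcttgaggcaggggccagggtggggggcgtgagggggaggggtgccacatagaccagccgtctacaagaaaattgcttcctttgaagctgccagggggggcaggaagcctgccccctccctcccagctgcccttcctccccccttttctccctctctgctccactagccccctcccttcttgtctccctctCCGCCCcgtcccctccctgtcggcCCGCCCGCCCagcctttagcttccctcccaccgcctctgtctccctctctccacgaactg

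The Postn promoter held a TATA box, its first base at position -26 from the start. Sparc held TGTTCT or its reverse complement at 2 places and CAGACA in reverse complement at 2 places, and no TATA box. Fbn1 held 1 GC box, and Bgn held 3 GC boxes, of which 2 overlap, and 1 TGTTCT. None of the 4 held AP-1, TEAD or CArG letters. Of 20143 promoters of protein-coding genes of the same length, 12.1% held TATAAA, 37.8% CCAAT, 47.7% GGGCGG, 7.0% TGANTCA, 13.4% CATTCC, 18.4% CAGACA, 15.9% TGTTCT and 1.51% the CArG box. CpG content differed among the 4. The ratio of observed to expected CpG was 0.583 in Fbn1, close to the median of 0.588 over all these promoters, 0.317 in Bgn, 0.242 in Postn and 0.174 in Sparc. A match describes the letters of the window and is not evidence of a bound factor.

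Every one of the 10 genes had an H3K27ac promoter peak in at least 2 of 3 replicate lists, where 53.9% of all protein-coding genes did. For H3K4me1 the count was 8 of 10, without Bgn and Fn1, against 43.7% of all genes. The calls of Tnc and Thbs1 each rested in 1 list on a short overlap, of 17 and 14 bp. With at least 200 bp of the windows covered the H3K4me1 count was 6, and the share of all genes under that rule was not computed. Dcn, Lum, Fbn1, Postn and Sparc had promoter peaks of both marks in all 6 lists, 5 of 10 members against 24.3% of all genes. Fn1 was the member with H3K27ac in all 3 lists and H3K4me1 in none, which held for 4.19% of all genes. With peaks of −log10 p of at least 1.3 alone, the counts were 7 for H3K27ac, 5 for H3K4me1 and 1 for all 6 lists, against 40.8%, 13.5% and 3.98% of all genes. The 1 gene left in all 6 lists was then Fbn1. Dcn kept H3K4me1 promoter peaks in 1 list and Lum in none, so both lost their H3K4me1 call.

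**Figure D1:**
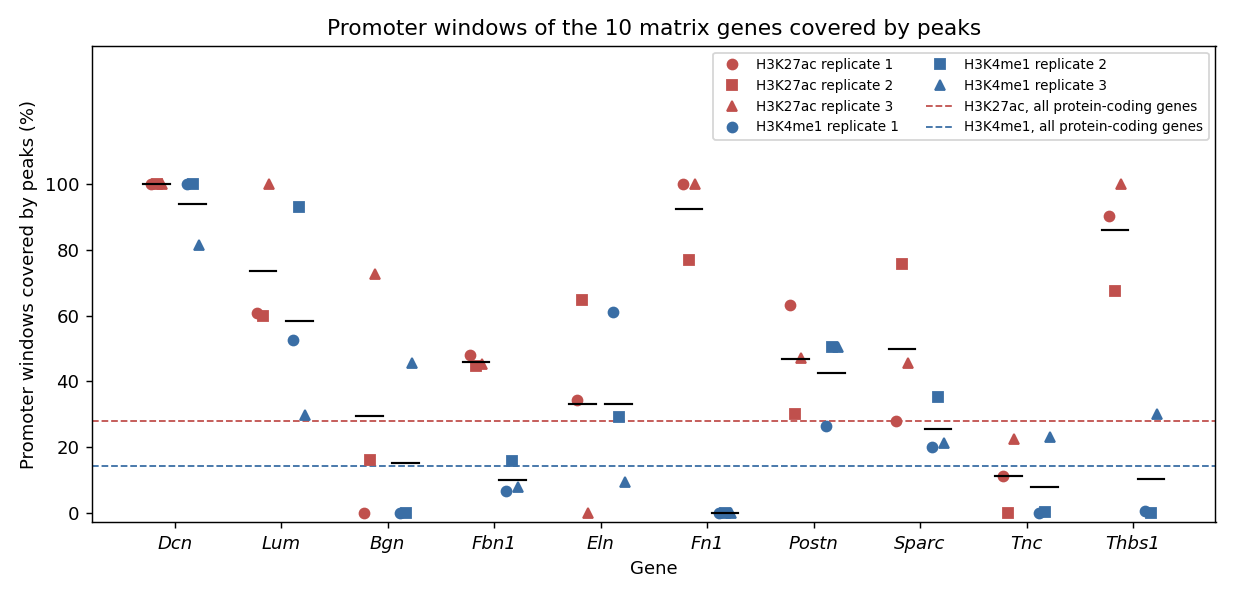
Share of the promoter windows (%) covered by peaks, for each matrix gene and replicate list. Red symbols are H3K27ac and blue symbols H3K4me1, black bars are means of 3 lists and dashed lines the share over all protein-coding genes. Fn1 and Thbs1 show H3K27ac far above H3K4me1 in every list, and Dcn is at 100% in every list but H3K4me1 replicate 3, at 81.5%.

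Fn1 encodes fibronectin, which cells assemble into fibrils through integrins. H3K27ac peaks covered 100%, 76.9% and 100% of its promoter windows in replicates 1, 2 and 3, and H3K4me1 peaks covered 0% in all 3 lists. The groups did not overlap, and the nearest H3K4me1 peaks lay 1620, 2422 and 2561 bp from the start in replicates 1, 2 and 3. The difference was 92.3 percentage points (H3K27ac 92.3% ± 13.3, SD, n = 3), with an exact two-sided permutation p of 0.1, the smallest that 3 lists against 3 allow, and 0.358 after Benjamini-Hochberg adjustment over all genes. All 4 annotated coding starts of Fn1 lay in H3K27ac peaks of all 3 lists. An antisense gene, Apol7d, begins within Fn1 and shares this window, and peaks carry no strand.

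Thbs1, which encodes the matricellular protein thrombospondin 1, had a like difference. H3K27ac covered 90.4%, 67.6% and 100% of its promoter window in replicates 1, 2 and 3. H3K4me1 covered 0.700%, 0% and 30.2%. The pooled H3K4me1 list covered 58.9% of this window, with the start, and 0% at Fn1. The lowest H3K27ac value was above the highest H3K4me1 value, with means of 86.0% ± 16.6 and 10.3% ± 17.2 (SD, n = 3) and an exact p of 0.1 (adjusted 0.358). Upstream of the start both marks were found, in a region that Gm13986, a non-coding gene on the other strand, overlaps; its start lies within the Thbs1 promoter window, and peaks carry no strand. A stretch of 1346 bp on chromosome 2, from 118109384 to 118110729, was covered by peaks of all 6 lists, centred 1820 bp upstream of the start. The H3K27ac promoter peak of Thbs1 ranked above 95.4% to 99.1% of all peaks in its list by fold enrichment, and its H3K4me1 promoter peaks, present in 2 lists, above 95.6% to 97.2%.

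Fbn1 encodes fibrillin 1, the main protein of microfibrils. H3K27ac covered 48.1%, 44.6% and 45.2% of its promoter window and H3K4me1 6.51%, 15.8% and 8.01%, in replicates 1, 2 and 3. These groups did not overlap either, with means of 46.0% ± 1.90 and 10.1% ± 5.00 (SD, n = 3) and an exact p of 0.1 (adjusted 0.358). The window joins 2 annotated coding starts. The downstream start, at 125506385 on chromosome 2, lay in H3K27ac peaks of all 3 lists and in H3K4me1 peaks of none, while the upstream start at 125507993 lay in no peak of either mark. The 300 bases printed above were covered 100% by H3K27ac in all 3 lists and 2.33%, 0% and 0% by H3K4me1. Gm9913, a protein-coding gene on the other strand, overlaps the downstream start and ends before the upstream one. Its own start, at 125505089, lay in the Fbn1 H3K27ac promoter peak of all 3 lists, and peaks carry no strand.

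These 3 genes were the members whose promoter windows had more H3K27ac in every list, 3 of 10 against 26.2% of all genes. No member had more promoter H3K4me1 in every list, which held for 1.71% of all genes. The share of members with more promoter H3K27ac was thus near that of all genes.

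Dcn and Lum encode decorin and lumican, small leucine-rich proteoglycans that bind collagen fibrils. Peaks of H3K27ac covered 100% of the Dcn promoter windows in all 3 lists, and those of H3K4me1 covered 100%, 100% and 81.5%. For Lum, H3K27ac covered 60.7%, 59.9% and 100% and H3K4me1 52.6%, 93.2% and 29.7%. The marks overlapped at both genes. A single H3K27ac peak of 14869, 11845 and 7664 bp spanned the Dcn promoter in replicates 1, 2 and 3. The mean H3K4me1 share of the Dcn promoter was above that of 99.7% of all genes, and the H3K27ac share above that of 97.1%.

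Biglycan, the product of Bgn, is the third small leucine-rich proteoglycan of the set, and its promoter was less covered. H3K27ac covered 0%, 16.1% and 72.6% of the window in replicates 1, 2 and 3, and H3K4me1 0%, 0% and 45.6%. Replicate 3 of either mark was the highest, and these 2 lists were called against the same IgG library. The printed Bgn promoter was covered by H3K27ac over 0%, 6.33% and 100% and by H3K4me1 over 0% in every list. Eln, which encodes elastin, likewise varied among lists: H3K27ac covered 34.3%, 64.8% and 0% of its promoter window and H3K4me1 61.1%, 29.2% and 9.25%. The start of Eln lay in 1 H3K27ac and 1 H3K4me1 list.

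Postn encodes periostin, a matricellular protein of collagen-rich tissues. H3K27ac covered 100%, 59.4% and 93.3% and H3K4me1 52.2%, 100% and 100% of the window that holds 3 of its 4 annotated coding starts. The window of the remaining start, inside the gene, had a peak in 1 of 6 lists, H3K27ac replicate 1, over 25.5%. RefSeq also gives an upstream Postn start, at 54359267 on chromosome 3, and the 300 bases around it were covered 100% by both marks in all 6 lists. That start lies within the stretch of 1000 bp from 54358960 to 54359959 that was covered in every list, centred 1650 bp upstream of the principal start. The marks at Postn overlapped.

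Sparc encodes a collagen-binding matricellular glycoprotein, and its 2 promoter windows differed. At the window that holds 4 of its 5 annotated coding starts, H3K27ac covered 51.2%, 100% and 72.9% and H3K4me1 22.3%, 0% and 0%. At the window of the remaining, upstream start, H3K27ac covered 0%, 46.0% and 12.2% and H3K4me1 17.6%, 77.9% and 47.3%. H3K27ac was thus above H3K4me1 in every list at the downstream starts, while the marks overlapped at the upstream start. These windows were singled out after their values were seen, and the difference was not tested. The RefSeq start, at 55420080, lay in all 3 H3K27ac lists and in 1 H3K4me1 list. The printed sequence was covered by H3K27ac over 36.7%, 100% and 100% and by H3K4me1 over 84.0%, 0% and 0%. Its H3K27ac peak was 8970, 7189 and 7119 bp wide and ranked above 98.4% to 99.5% of its list by fold enrichment, where the highest H3K4me1 promoter peak ranked above 73.7% to 99.7%.

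Tnc encodes tenascin C, a glycoprotein of developing and healing tissue, and had the least promoter coverage of H3K27ac among the 10 genes. H3K27ac covered 11.3%, 0% and 22.4% of its 2 windows and H3K4me1 0%, 0.425% and 23.1%. Neither of its 2 annotated starts lay in a peak of any replicate list. Within 250 bp of a start Tnc had no peak of either mark in any replicate list, while a peak of the pooled H3K27ac list came within that distance of its principal start. With that narrower window 9 of 10 members were called for H3K27ac, against 49.2% of all genes. For H3K4me1 it called 4 of 10, namely Dcn, Lum, Postn and Sparc, against 27.1% of all genes. The RefSeq starts of 7 of 10 members were covered by H3K27ac in all 3 lists, against 23.8% of 20866 protein-coding genes with a RefSeq entry. Those of Lum and Postn were covered by H3K4me1 in all 3 lists, 2 of 10 against 3.36%. The RefSeq start counted here is the outer end of the gene in RefSeq. For Postn it is the upstream start, while the principal start of Postn lay in 2 H3K4me1 lists. H3K4me1 reached the RefSeq start of 5 members in no list, against 75.6% of these genes.

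**Figure D2:**
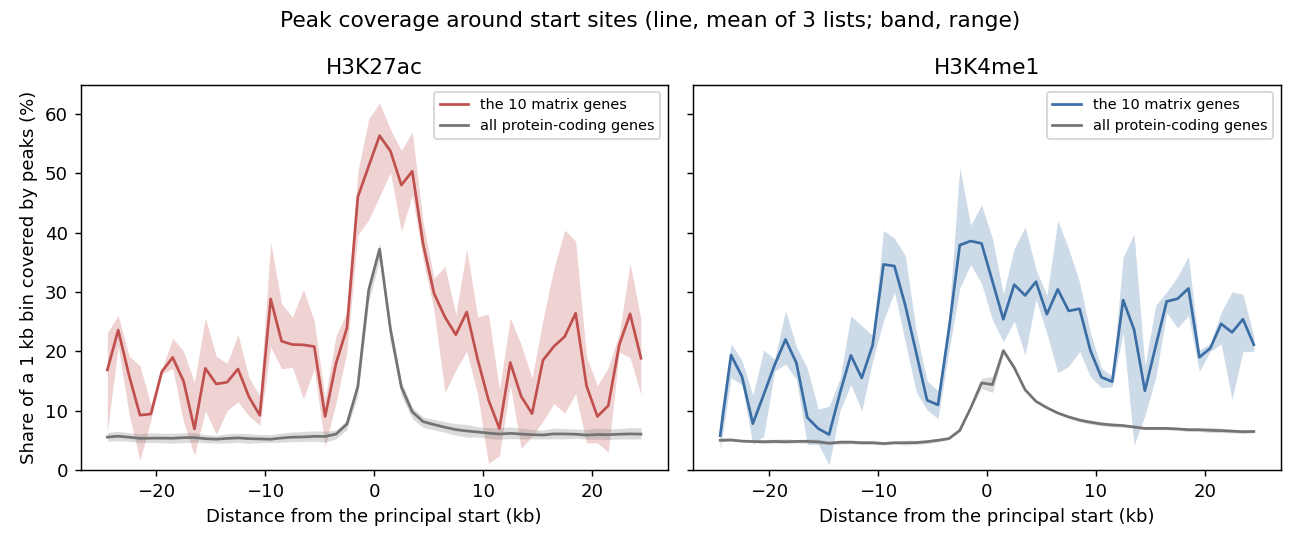
Share of each 1 kb bin (%) covered by peaks, by distance from the principal annotated start, averaged over the 10 matrix genes (coloured) and over all protein-coding genes (grey). Lines are means of 3 lists and bands their range. The matrix genes stay above the grey line over most of the 25 kb on either side.

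The loci as a whole were covered more than the average locus. Of the summed length of the 10 loci, H3K27ac peaks covered 19.2%, 15.9% and 14.4% in replicates 1, 2 and 3, and H3K4me1 peaks 18.7%, 18.8% and 18.9%. All protein-coding loci were covered over 7.69%, 6.38% and 5.66% by H3K27ac and 7.29%, 7.02% and 6.74% by H3K4me1. The 10 loci thus exceeded all loci 2.51 ± 0.0259 times in H3K27ac and 2.68 ± 0.115 times in H3K4me1 (SD, n = 3). The median member was covered over 14.6% and 13.2% of its locus by H3K27ac and H3K4me1, where 14.1% and 15.3% of all genes had more. In the promoter windows the ratio was 2.01 ± 0.263 and 2.33 ± 0.337, in the gene bodies outside them 2.77 ± 0.236 and 2.30 ± 0.171, and in the flanks 2.43 ± 0.224 and 3.33 ± 0.169. These ratios describe the 10 genes and were given no test.

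**Figure D3:**
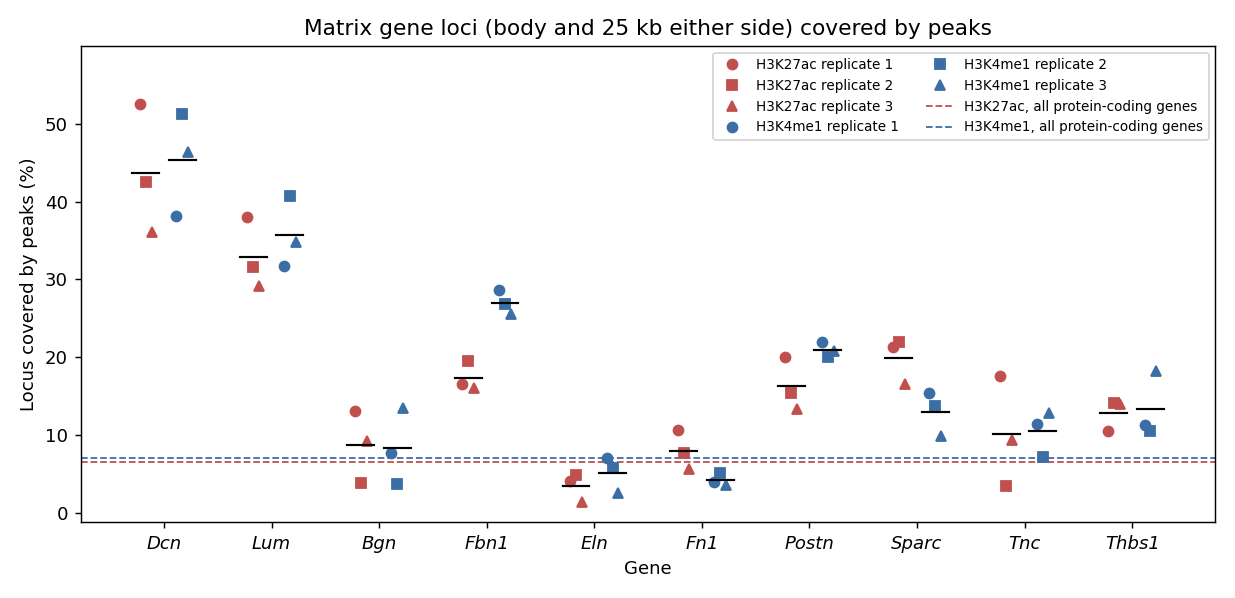
Share of each locus (gene body and 25 kb either side, %) covered by peaks of each replicate list. Red symbols are H3K27ac and blue symbols H3K4me1, black bars are means of 3 lists and dashed lines the share over all protein-coding loci. Dcn and Lum stand highest, Fbn1 has more H3K4me1 in every list, Sparc and Fn1 more H3K27ac, and Eln lies near or below the dashed lines.

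The order of the loci was led by Dcn, covered over 52.5%, 42.6% and 36.1% by H3K27ac and 38.2%, 51.3% and 46.4% by H3K4me1. Lum followed with 38.1%, 31.5% and 29.1% and with 31.8%, 40.7% and 34.8%. The lists of these neighbours overlapped for either mark. The means of Dcn were above those of 99.7% of all genes for H3K27ac and 99.9% for H3K4me1, and those of Lum above 98.9% and 99.2%. The 2 genes lie 46984 bp apart on chromosome 10, and their loci share 3016 bp, in which 0 to 2 peaks of a list were counted for both. The body of Lum outside its promoter was covered over 78.0%, 84.1% and 84.9% by H3K27ac and 72.6%, 100% and 96.2% by H3K4me1, and 99.4% and 99.8% of all genes had less.

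Below them stood Fbn1, Postn, Sparc and Thbs1. Fbn1 was covered over 16.6%, 19.5% and 16.1% by H3K27ac and 28.6%, 26.8% and 25.6% by H3K4me1. Every H3K4me1 list was higher than every H3K27ac list, with means of 27.02% ± 1.50 and 17.4% ± 1.82 (SD, n = 3), an exact p of 0.1 and an adjusted p of 0.342. This was 1 member of 10 with more H3K4me1 in every list, against 12.0% of all genes. The same held in its gene body outside the promoter, where H3K27ac covered 13.9%, 16.8% and 15.6% and H3K4me1 27.6%, 24.2% and 26.3%. Here too 1 of 10 members, Fbn1, had more H3K4me1, against 12.7% of all genes. The direction at Fbn1 was therefore H3K27ac over H3K4me1 at the promoter and the reverse in the body.

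Sparc was covered over 21.3%, 21.9% and 16.5% by H3K27ac and 15.4%, 13.8% and 9.92% by H3K4me1. Fn1 was covered over 10.6%, 7.68% and 5.60% by H3K27ac and 3.99%, 5.09% and 3.58% by H3K4me1. These 2 of 10 genes had more H3K27ac over the locus in every list, against 17.2% of all genes, each with an exact p of 0.1 and an adjusted p of 0.342. In the bases of the gene body outside the promoter windows the same 2 genes had more H3K27ac in every list, against 3.97% of all genes. These bases include parts of H3K27ac promoter peaks that reach into the body, in all 3 lists at Sparc and in replicates 1 and 3 at Fn1. The body without those peaks was not measured. There H3K27ac covered 49.6%, 27.5% and 23.3% of Sparc and H3K4me1 16.2%, 7.64% and 11.8%. For Fn1 the values were 12.4%, 8.07% and 5.03% against 4.40%, 3.24% and 4.39%, so that the lowest H3K27ac list was barely above the highest H3K4me1 list. The smallest adjusted p of any member in the gene body was 0.601.

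In the flanks no member had more H3K27ac in every list, against 15.5% of all genes. Postn was the 1 member with more H3K4me1 in every list, against 7.73% of all genes. Its flanks were covered over 17.5%, 17.6% and 10.1% by H3K27ac and 30.6%, 25.4% and 23.6% by H3K4me1, with an exact p of 0.1 and an adjusted p of 0.430. Over the whole Postn locus the marks overlapped, at 20.1%, 15.5% and 13.3% of H3K27ac and 22.0%, 20.1% and 20.8% of H3K4me1.

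The remaining loci varied more among lists of a mark than between the marks. Thbs1 was covered over 10.5%, 14.1% and 14.0% by H3K27ac and 11.2%, 10.5% and 18.2% by H3K4me1. Bgn had 13.0%, 3.78% and 9.19% of H3K27ac and 7.69%, 3.71% and 13.5% of H3K4me1. Tnc had 17.6%, 3.49% and 9.42% of H3K27ac and 11.4%, 7.24% and 12.8% of H3K4me1. Replicate 2 was the lowest at Bgn and Tnc for either mark. Eln was the least covered locus for H3K27ac, and for H3K4me1 Fn1 alone had a lower mean. The Eln locus had 4.10%, 4.83% and 1.40% of H3K27ac and 7.11%, 5.74% and 2.56% of H3K4me1. Its means were above those of 42.5% and 56.6% of all genes, and the flanking peaks of Eln included those at the promoter of Limk1, a kinase gene beside it, in all 3 lists of either mark.

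H3K27ac replicate 1 was the only list called against the first IgG library, so the marks could be compared within the other 2 IgG libraries. Lists of different marks that shared an IgG library deviated together from the mean of their mark (Pearson r across genes, which are not independent replicates, of 0.374, 0.335 and 0.494), while the other 6 pairs of lists gave -0.508 to 0.0729. The deviations of the 3 lists of a mark cancel at each gene, so positive values in some pairs force lower values in others. The permutation test treats the 6 lists as exchangeable and takes no account of shared IgG libraries. Within the second (H3K27ac replicate 2, H3K4me1 replicates 1 and 2) and the third (replicate 3 of each mark), H3K27ac minus H3K4me1 was -8.25 and -9.52 percentage points for the Fbn1 locus, 7.33 and 6.61 for Sparc and 3.14 and 2.02 for Fn1. In the promoter windows it was 76.9 and 100 points for Fn1, 67.3 and 69.8 for Thbs1 and 33.4 and 37.2 for Fbn1. The flanks of Postn gave -10.4 and -13.5 points. These kept the direction of the comparison over the 6 lists, but with 1 or 2 lists a mark they were given no test. Over the 10 loci 8 kept their direction in both IgG libraries. The Bgn locus turned in both, from 0.381 to -1.92 and -4.27 points, and the Thbs1 locus in the second, from -0.452 to 3.21. In the promoter windows 5 of 10 kept it in both. Postn turned from 4.29 to -8.45 and -3.37 points and Tnc from 3.41 to -0.212 and -0.625. Lum and Eln turned in the second, to -13.0 and 19.6, and Dcn had no difference there. In the gene body of Fn1 the values were 4.25 and 0.638 points.

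**Figure D4:**
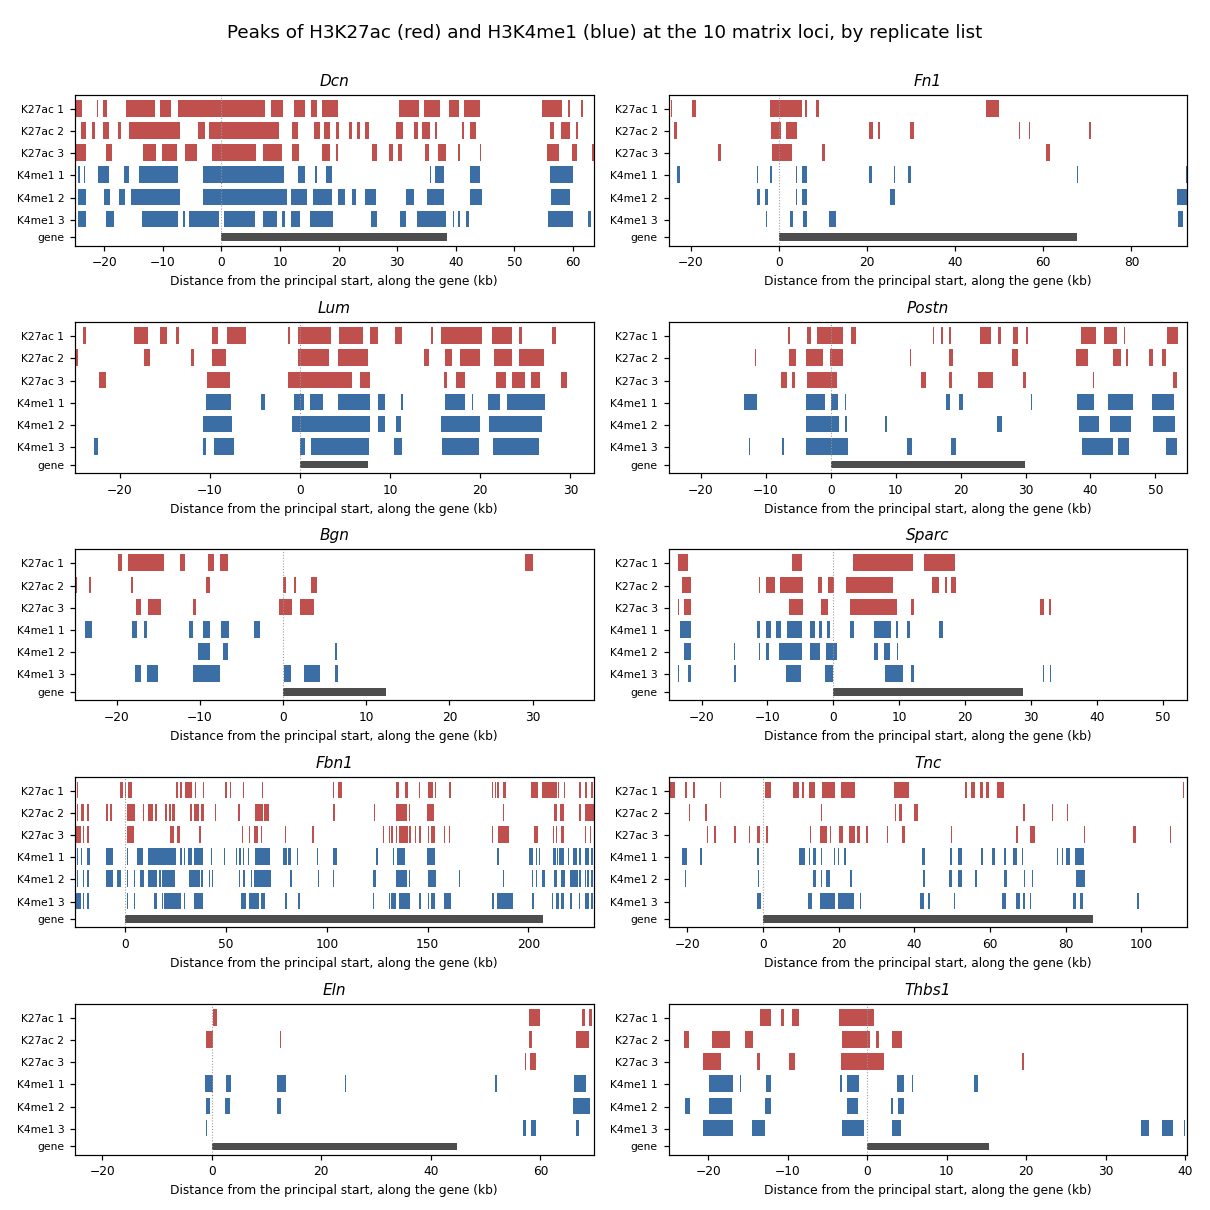
Peaks at the 10 loci in each replicate list, drawn against the distance (kb) from the principal annotated start in the direction of the gene, with the gene body as a grey bar. Red bars are H3K27ac and blue bars H3K4me1 peaks, at their true width. Broad peaks of both marks lie over most of the Lum gene and the first part of the Dcn gene, H3K4me1 peaks are spread along Fbn1, and the Fn1 start holds H3K27ac peaks alone.

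Sequence covered by peaks of all 6 lists outside the promoter windows was found at 6 of the 10 loci, against 39.9% of all protein-coding loci. Dcn had 11 such stretches with 9376 bp in all, and Lum 8 with 4774 bp. The longest was in the upstream flank of Dcn, 2129 bp on chromosome 10 from 97466176 to 97468304, centred 12369 bp before the start. Lum had 1403 bp in intron 2, from 97569428 to 97570830. Sparc had 1349 bp on chromosome 11, from 55428094 to 55429442 and centred 5585 bp upstream of its principal start, and 732 bp in an intron. The windows cut through promoter peaks, so this sequence includes parts of them. In every H3K27ac list, promoter peaks held the only Thbs1 stretch, 732 bp at Sparc and 1314 bp at Lum. They also held the Dcn stretches between 97477933 and 97485265, and without the cut Dcn had 10 stretches. The Postn stretch of 1000 bp lay in H3K27ac promoter peaks in some lists only. Sequence apart from promoter peaks was not measured. Bgn, Eln, Fn1 and Tnc had no stretch in all 6 lists outside the promoter windows.

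Fbn1 had 8 such stretches with 2514 bp in all, although it is the longest gene of the set at 207400 bp. By contrast, 28245 bp outside its promoter were covered in all 3 H3K4me1 lists and 5337 bp in all 3 H3K27ac lists. The longest stretch of all 6 lists was 1180 bp in intron 31 of 65 exons, on chromosome 2 from 125355172 to 125356351 and 152232 bp from the principal start. Its middle 300 bases are shown on the strand of the gene, with the same motifs in capitals. Fbn1 was chosen after its values were seen, as the only member with the marks in opposite order, without overlap, at promoter and body.
Fbn1 intron 31, chr2:125355612-125355911, minus strand: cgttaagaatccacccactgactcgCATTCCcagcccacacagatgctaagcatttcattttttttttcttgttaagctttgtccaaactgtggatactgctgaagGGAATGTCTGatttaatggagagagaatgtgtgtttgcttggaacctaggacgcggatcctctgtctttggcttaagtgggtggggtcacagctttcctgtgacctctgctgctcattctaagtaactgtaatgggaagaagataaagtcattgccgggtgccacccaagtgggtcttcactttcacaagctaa
This sequence held CATTCC and its reverse complement, the latter overlapping a reverse complement of CAGACA, and 5 CpG with an observed to expected ratio of 0.320. The middle 300 bases of the longest Sparc stretch held none of the motifs. The share of other distal windows that hold them was not computed.

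Members of related families were counted by the same promoter rule to place the 10 genes among other matrix genes. The rule called 53.9% of all protein-coding genes for H3K27ac and 43.7% for H3K4me1, and 24.3% had both marks in all 6 lists. Of 12 other leucine-rich proteoglycan genes, 5 had H3K27ac and 4 H3K4me1 in at least 2 of 3 lists, and 3 had both in all 6. These were Omd, Ogn and Epyc, and Epyc lies in the same chromosome 10 cluster as Dcn and Lum. Of 18 elastic fibre and fibrillin partners 14 had H3K27ac and 13 H3K4me1, with both in all 6 lists at 5, among them Loxl1, which cross-links elastin, Mfap5, a microfibril protein, and Ltbp1, which binds latent TGF-β to fibrillin. Of 22 other matricellular and adhesive glycoprotein genes 8 had H3K27ac and 11 H3K4me1, and 4 had both in all 6 lists, including Ccn2, Ecm1 and Sparcl1. Of these 22, 6 had no promoter peak in any list, among them Nid1, Tnn and Tnxb, where 32.8% of all protein-coding genes had none.

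The large proteoglycans gave 4 and 5 of 10, with both marks in all 6 lists at Vcan, Hspg2 and Prg4 and no promoter peak at 4, including Spock1, Spock2 and Ncan. Laminins gave 7 and 7 of 11, collagens 23 and 27 of 41, and matrix proteases and their inhibitors 20 and 19 of 29, against 53.9% and 43.7% of all genes. The median locus of these lists was covered over 2.13% to 11.5% by H3K27ac and 3.87% to 14.2% by H3K4me1, where the 10 genes had 14.6% and 13.2% and all protein-coding genes 4.71% and 3.97%. The leucine-rich proteoglycans had the highest medians of the other lists for either mark. The 10 genes and these lists were chosen by name, with earlier results known, and no test between lists was made.

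**Figure D5:**
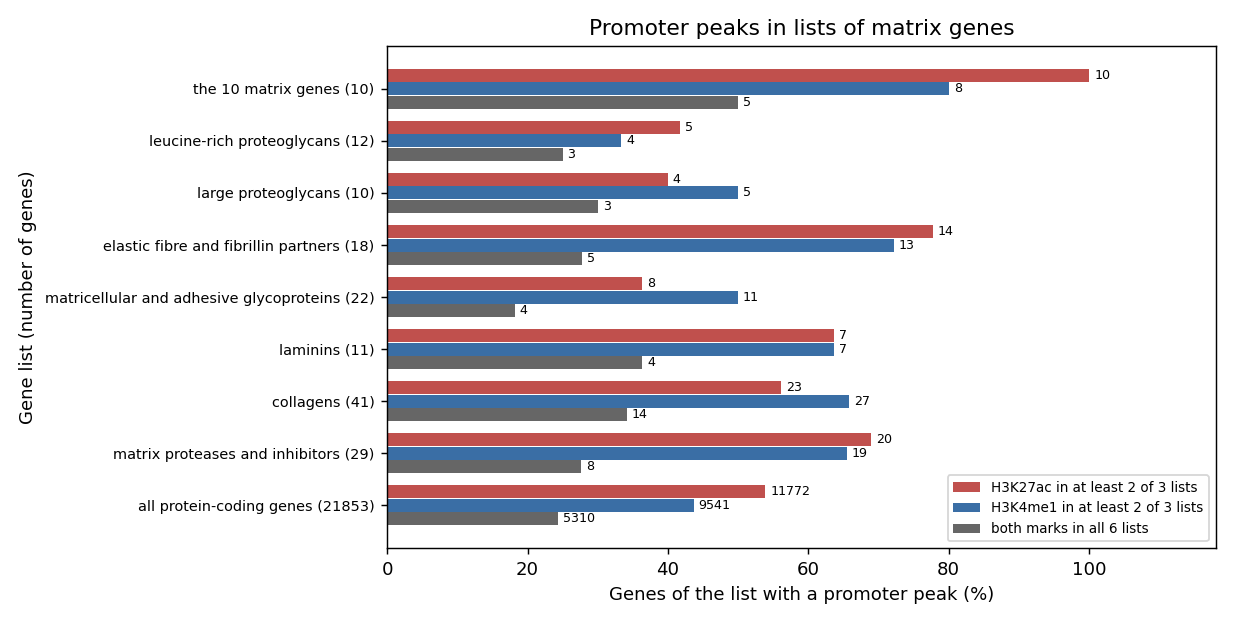
Share of each list of matrix genes (%) with a promoter peak of H3K27ac (red) or H3K4me1 (blue) in at least 2 of 3 replicate lists, or of both marks in all 6 lists (grey), with the number of genes beside each bar. The 10 matrix genes reach 10, 8 and 5, and the lowest bar gives all protein-coding genes.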

How the data were processed

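Peak lists from ChIC-Seq were analysed for 3 H3K27ac and 3 H3K4me1 samples, with 1 pooled list per mark. The submitters' processing notes name cutadapt, Bowtie2, MACS2 and GRCm38.p5. Per the file headers the authors called broad peaks on paired fragments with MACS 2.2.7.1 against IgG, with a p-value cutoff of 0.05, relaxed to 0.1 for linking weaker stretches. The deposited pileup is a coverage signal, the deposited fold enrichment a ratio over local background, and the deposited p-values are on the −log10 scale. The 8 q-value columns, 1 per list, were not used. The depth of the IgG libraries limits how finely peaks can be ranked.

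Covered share was the length of a window lying in at least 1 peak, computed with Python 3.11.15, numpy 2.4.6 and pandas 2.3.3 on GENCODE release M 21. It counts bases, so a promoter peak reaching past its window adds to the share of the gene body or flank as well. Marks were compared by an exact two-sided permutation test over 20 assignments of the 6 lists, for all 21853 genes, with Benjamini-Hochberg adjustment. "More in every list" means that the lists of the marks did not overlap. P-values measure the spread between these samples, which may be technical. The code was tested on simulated data. The members and gene lists were chosen with earlier results of these data known. Named were all members, neighbours whose promoter met a flanking peak in all 3 lists of a mark, at most 3 genes of each other list with promoter peaks in all 6 lists (highest covered share) or in none (longest), and the longest stretch of each member in all 6 lists. Genes overlapping a member promoter on the other strand and single cell type markers fall outside this rule and were named after their values were seen. Promoters were printed for at most 5 members with both marks in all 6 lists or H3K4me1 in at most 1. Alternatives varied windows, flanks, starts, peak threshold, scaling and replicates.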

Additional observations from a re-analysis of the deposited data

How the results depend on the processing

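The Fbn1, Fn1 and Sparc loci kept their direction under all 13 alternatives, and Fbn1 and Sparc also stayed without overlap of the marks. Fn1 overlapped at 2.49 points (H3K27ac minus H3K4me1) with peaks of at least 5 times the mean coverage and at 1.85 points with flanks of 50 kb. The other 7 loci, whose marks overlapped, changed sign under some alternatives, 24 of their 91 values in all. With peaks of −log10 p of at least 1.3, Dcn gave 9.56 points, Lum 4.62, Eln 1.19 and Thbs1 4.18. With peaks of at least 5 times the mean coverage Bgn gave -0.647. With flanks of 10 kb Bgn gave -3.91, Postn 3.63 and Thbs1 6.62, with flanks of 50 kb Dcn gave 0.281 and Tnc 1.26, and over the gene body alone Postn gave 6.25 and Thbs1 2.48. Divided by the share of all loci, Dcn gave a ratio difference of 0.145 and Thbs1 0.101. Leaving out 1 replicate gave -5.97 to 2.25 points for Dcn, -1.91 to 2.97 for Bgn, -4.03 to 3.00 for Tnc and -1.87 to 2.01 for Thbs1.

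The count of members with an H3K4me1 promoter peak fell from 8 to 4 with windows of 250 bp and to 5 with −log10 p of at least 1.3, where the count in all 6 lists fell from 5 to 1. That threshold gave ratios of the 10 loci to all genes of 1.97 for H3K27ac and 2.13 for H3K4me1. A coverage of at least 5 times the mean gave 2.67 for H3K27ac, flanks of 10 kb 2.54 and 2.48, flanks of 50 kb 2.41 for H3K27ac and the gene body alone 2.63 and 2.28. Loci with more H3K4me1 in every list rose from 1 to 3 at that coverage (Lum and Postn added, against 18.5% of all genes) and to 2 with flanks of 50 kb or after division by all loci (Postn added, against 13.2% and 10.7%). Loci with more H3K27ac fell from 2 to 1 at that coverage and with flanks of 50 kb, without Fn1, against 14.5% and 18.3% of all genes, and rose to 3 with −log10 p of at least 1.3 and with flanks of 10 kb, Thbs1 added, against 25.9% and 15.7%. Leaving out a replicate gave 1 to 3 loci with more H3K4me1: 3 without H3K27ac replicate 1 (Lum and Postn added, against 19.0% of all genes), 2 without H3K4me1 replicate 2 (Postn added, 14.3%) and 2 without H3K4me1 replicate 3 (Eln added, 18.0%). Replicates of the same number correlated at -0.0804, 0.335 and 0.494 in their deviations over genes, high where they shared an IgG library (as the pair of H3K27ac replicate 2 and H3K4me1 replicate 1 did, at 0.374), so the numbers were not taken as pairs; with a replicate block 3 loci had more H3K4me1 in every pair, with Eln and Postn added at -1.70 and -4.67 points, against 19.1% of all genes. The cause of these changes was not tested.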
